A study of Homo sapiens with 6 samples.

Results

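Human chromosome 19 carries the largest part of the ZNF gene family, and 233 of its ZNF genes were measured here in 6 monoclonal lines of K562, an erythroleukemia cell line derived from a patient with chronic myeloid leukemia. A gene was included if its probe set was annotated with 1 symbol made of ZNF and a number, with or without a final letter, and if the gene table of assembly GRCh38.p14 placed it on chromosome 19. These were 233 of the 480 ZNF-numbered genes and of the 18417 genes with a probe set annotated to that gene alone. Of the 233, 225 were protein coding and 8 were transcribed pseudogenes. The table lists 263 such genes on chromosome 19, of which 30 had no probe set of their own and 16 of these were read only by probe sets shared with other genes.

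The vector group was 3 lines stably transfected with empty pEF1α, and the other group was 3 lines with pEF1α-Pu.2, the same plasmid holding the mouse Pu.2 cDNA. PU.2 is an N-terminally truncated form of the ETS transcription factor PU.1, transcribed in mouse erythroid cells from the long terminal repeat of a retrotransposon. All 6 lines were electroporated and kept under puromycin, each line is 1 clone on 1 Affymetrix Human Gene 1.0 ST array, and the EF1α promoter of the plasmid is a constitutive one. For growth the labels name an insect cell medium, whereas the methods of the study give RPMI for K562. Since each clone gave 1 array, differences between clones cannot be told apart from differences in RNA handling. Of the K562 and erythroid markers, 9 of 10 had their own probe set, and all 9 (GATA1, TAL1, LMO2, HBE1, HBZ, EPOR, KLF1, NFE2 and TFRC) lay above the median of all probe sets in every line. Of 11 markers of other cells that were measured, with log2 values of 2.85 to 6.98, 5 lay under it in every line (CD3E and CD2 of T cells, MS4A1 of B cells, CD14 of monocytes and DCN of fibroblasts). COL1A1 of fibroblasts lay above it in all 6 lines, and CD3D, CD79A, CSF1R, LYZ and COL1A2 in 1 to 4 of them. The array medians were 5.30 to 5.42 on the log2 scale.

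Most ZNF genes on chromosome 19 encode proteins with a tandem array of C2H2 zinc fingers that bind DNA, often joined to a KRAB domain. The KRAB domain recruits the corepressor TRIM28, which brings the histone methyltransferase SETDB1 and heterochromatin proteins to the bound site. Many of the targets are retrotransposons, the class of elements whose silencing the study examined. The genes arose by repeated local duplication and lie in clusters, so that neighbours are similar in sequence and a probe set can also read the transcripts of a close copy.

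Promoters were compared in the cluster that holds ZNF91, which also holds the genes that differed most between lines. A promoter of 300 bases (250 before and 50 after the start) was found in the RefSeq sequences of GRCh38.p14 for 200 of the 233 genes, 29 of them in that cluster. The stretches below are the last 150 bases before the annotated start, 5′ to 3′ on the strand of the gene. ZNF724, ZNF730, ZNF91 and ZNF626 are shown because they were among the most variable genes between lines of the same group. ZNF431 lies in the same cluster and varied little within each group, although it was higher in every pEF1α-Pu.2 line than in any vector line. ZNF181 is shown as a gene from another cluster. Capitals mark matches to the motif CCAATCA, which is the form of a CCAAT box, and to the motif CCGGAA, an ETS core, read on either strand.
ZNF724 (chr19:23250395-23250544, minus strand): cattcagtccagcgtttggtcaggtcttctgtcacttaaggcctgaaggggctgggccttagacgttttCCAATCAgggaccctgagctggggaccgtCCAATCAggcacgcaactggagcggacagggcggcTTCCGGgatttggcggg
ZNF730 (chr19:23116875-23117024, plus strand): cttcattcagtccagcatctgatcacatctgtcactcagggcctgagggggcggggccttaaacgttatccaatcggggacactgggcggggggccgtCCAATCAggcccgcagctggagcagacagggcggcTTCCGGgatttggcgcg
ZNF91 (chr19:23395472-23395621, minus strand): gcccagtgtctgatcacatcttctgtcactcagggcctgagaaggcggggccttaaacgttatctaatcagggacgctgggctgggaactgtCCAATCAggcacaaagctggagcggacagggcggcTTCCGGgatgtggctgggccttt
ZNF626 (chr19:20661572-20661721, minus strand): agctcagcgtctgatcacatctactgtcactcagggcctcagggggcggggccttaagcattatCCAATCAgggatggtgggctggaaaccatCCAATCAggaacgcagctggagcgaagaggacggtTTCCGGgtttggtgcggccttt
ZNF431 (chr19:21141890-21142039, plus strand): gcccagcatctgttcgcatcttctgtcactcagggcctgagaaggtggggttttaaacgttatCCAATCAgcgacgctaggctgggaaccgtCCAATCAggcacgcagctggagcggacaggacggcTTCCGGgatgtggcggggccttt
ZNF181 (chr19:34734093-34734242, plus strand): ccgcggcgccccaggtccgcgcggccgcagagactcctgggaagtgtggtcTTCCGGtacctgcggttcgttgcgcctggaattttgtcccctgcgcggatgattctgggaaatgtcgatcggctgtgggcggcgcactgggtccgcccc

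The 5 stretches of the ZNF91 cluster can be read side by side from the CCAAT box to the ETS core, whereas that of ZNF181 holds an ETS core and no CCAATCA. In pairwise global alignments the promoters of the ZNF91 cluster had a median identity of 77.8% (406 pairs), and they had one of 59.3% with the promoters of the other members (4959 pairs). CCAATCA occurred in 27 of the 29 promoters of the cluster (93.1%), in 29 of the 171 other members (17.0%) and in 7.28% of the 27305 promoters of all genes. CCGGAA occurred in 75.9% of the cluster, in 50.9% of the other members and in 17.6% of all genes, and it was also present in 46.6% of the ZNF genes on other chromosomes. Both were chosen after the sequences had been seen. GAGGAA, the core that PU.1 favors, was found in 72.4% of the cluster, in 26.9% of the other members and in 27.6% of all genes, and CACCC, the core of KLF sites, in 62.1%, 63.7% and 58.9%. Since the promoters of the cluster are similar copies, the share of a motif among them does not count independent sites. The GAGGAA and the CCGGAA motif share their last letters, and a given position can match only 1 of them. The 12-base string CTGTCACTCAGG stood in 18 of the 29 promoters of the cluster (62.1%), in 1.75% of the other members and in 0.136% of all genes. It was picked for being frequent in the cluster, so that its excess there is no independent result. The promoters of the cluster were also poorer in CpG, with a median of 10 in 300 bases against 22 in the other members and 14 in all genes. A match of letters in this window is a description and shows no binding.

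No chromosome 19 ZNF gene differed between pEF1α-Pu.2 and vector lines past the threshold. The test was made with limma over all 18417 genes at a Benjamini-Hochberg adjusted p under 0.05, which called 68 genes (0.369%). At an unadjusted p under 0.05, 5 of the 233 were higher and 18 lower in the pEF1α-Pu.2 lines, that is 2.15% and 7.73%, where 3.83% and 5.7% of all genes were. The groups did not overlap in 9 genes that were higher (3.86%, 7.02% of all genes) and in 21 that were lower (9.01%, 6.8% of all genes). The median log2 difference over the 233 was -0.03, with 106 above 0 (45.5%), and that over all genes was 0.02, with 54.1% above 0. The ZNF genes on other chromosomes had a median of -0.02, 5.67% higher and 9.72% lower without overlap, whereas the 1075 other genes on chromosome 19 had a median of 0.04, 7.26% and 4.37%. In these samples of bulk RNA, fewer cells with a transcript and less of it per cell cannot be told apart. The sign of the member median rested on single lines, since it was 0.04 without vector line 3 and 0.01 without pEF1α-Pu.2 line 1.

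Of the 9 genes that were higher in every pEF1α-Pu.2 line, ZNF833P, ZNF431, ZNF480 and ZNF714 had the largest differences. ZNF431 had log2 values of 7.46, 7.82 and 7.82 in vector lines 1, 2 and 3 and of 8.33, 8.25 and 8.51 in the pEF1α-Pu.2 lines. The lowest pEF1α-Pu.2 line thus lay above the highest vector line, with a log2 difference of 0.66 (standard error 0.14, adjusted p = 0.145). ZNF714, its neighbour in the cluster, had 7.04, 7.05 and 7.11 in the vector lines, close to each other, and 7.59, 7.40 and 7.63 in the pEF1α-Pu.2 lines. Its difference was 0.47 (standard error 0.12, adjusted p = 0.202). ZNF480 had 8.48, 8.70 and 9.01 in the vector lines against 9.26, 9.43 and 9.43 in the others. Vector line 3 came nearest to the pEF1α-Pu.2 lines, and the difference was 0.64 (standard error 0.15, adjusted p = 0.186). The pseudogene ZNF833P had 4.71, 4.43 and 4.98 against 5.62, 5.37 and 5.34, a difference of 0.73 (standard error 0.16, adjusted p = 0.151). Without vector line 3, ZNF480 and ZNF833P were the 2 members past the test, both higher, with differences of 0.78 (adjusted p = 0.026) and 0.87 (adjusted p = 0.024). In the same fit 0.863% of all genes were called higher, which is close to the 2 of 233. Over the alternatives tried the adjusted p ranged from 0.026 to 0.653 for ZNF480 and from 0.024 to 0.550 for ZNF833P. The 5 other genes, ZNF221, ZNF534, ZNF324, ZNF230 and ZNF610, had differences of 0.05 to 0.29 and log2 values of at most 5.18.

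Among the 21 genes that were lower in every pEF1α-Pu.2 line, ZNF234 and ZNF181 had the smallest p values of all members. ZNF181 had 7.09, 6.98 and 7.06 in the vector lines, a spread of 0.05 (SD), and 6.17, 6.47 and 6.56 in the pEF1α-Pu.2 lines. The gap between the groups was wider than the spread within either, with a difference of -0.64 (standard error 0.14, adjusted p = 0.135). ZNF234 had 5.60, 5.87 and 6.03 against 4.90, 5.33 and 4.90, a difference of -0.79 (standard error 0.17, adjusted p = 0.135). Neither passed under any alternative, with the lowest adjusted p at 0.092 for ZNF181 and 0.097 for ZNF234. ZNF737 had the largest difference of these genes, -0.99 (standard error 0.27, adjusted p = 0.253). Its vector lines ran from 4.34 in line 1 to 5.26 in line 3, with line 2 between them, and its pEF1α-Pu.2 lines had 3.51, 3.81 and 4.31, so that the groups almost met. ZNF486 had 7.50, 7.34 and 7.77 against 5.66, 7.02 and 7.14, so that its difference of -0.93 (adjusted p = 0.445) came mainly from pEF1α-Pu.2 line 1 and was -0.46 without it. ZNF493, ZNF790, ZNF850, ZNF443, ZNF264 and ZNF792 had differences of -0.45 to -0.60, with adjusted p values of 0.262 to 0.397.

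**Figure D1:**
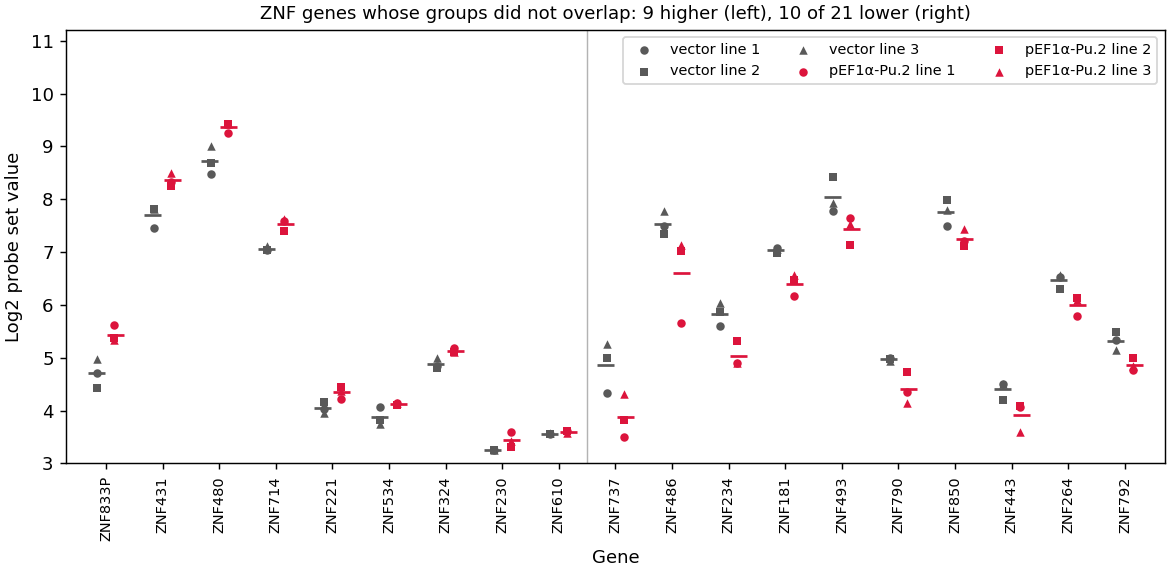
Vertical axis, log2 value of the probe set, for the 9 higher and the 10 largest of the 21 lower chromosome 19 ZNF genes whose groups did not overlap, with 1 symbol per line and bars at the group means of 3 lines. Gray marks the vector and red the pEF1α-Pu.2 lines, and the gap between the groups is wide for ZNF181 and narrow for ZNF737, with pEF1α-Pu.2 line 1 far below the others for ZNF486 at 5.66.

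As a set, the chromosome 19 ZNF genes stood apart in the spread between lines of the same group, though unevenly by cluster. The SD between lines, pooled over both groups, was over 0.5 on the log2 scale in 25 of the 233 (10.7%) and in 3.04% of all genes, a limit chosen after the values had been seen. It was over 0.5 in 10 of the 247 ZNF genes on other chromosomes (4.05%) and in 10 of the 1075 other genes of chromosome 19 (0.930%). Of the 25 members, 13 lay in the cluster from ZNF101 to ZNF507 and 5 in that from ZNF565 to ZNF573. The median SD was 0.22 in the members, 0.19 in the ZNF genes elsewhere, 0.17 in the other genes of the chromosome and 0.18 over all genes, and the 90th percentile was 0.51, 0.36, 0.29 and 0.34. In their mean level, 130 of 233 (55.8%) lay at or above the median of all probe sets, where 57.0% of all genes did. The count of 25 was 19 to 35 when 1 line was left out, lowest without vector line 3, where 1.72% of all genes passed, and highest without vector line 2, where 3.7% did. It was 25 to 30 under the other normalizations.

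The 10 clusters with 5 or more members held 221 of the 233 genes and differed in this spread. A new cluster was begun where more than 10 protein-coding genes other than members lay between neighbours. The cluster from ZNF101 to ZNF507, in which ZNF91 lies, had 36 members, a median SD of 0.37 and 13 of the 25 most variable genes. The cluster from ZNF565 to ZNF573 had 26 members, a median SD of 0.30 and 5 of them. In the cluster from ZNF575 to ZNF180, with 20 members, the median SD was 0.14 and no gene was over 0.5. The cluster from ZNF175 to ZNF331 (39 members) and that from ZNF787 to ZNF446 (49 members) had medians of 0.23 and 0.20. Median differences between the groups were small in all of these, from -0.07 to 0.05. ZNF302 to ZNF792, a cluster of 5 genes with ZNF181 in it, had the lowest median difference, -0.43, and all 5 were below 0, 2 of them without overlap (6.8% of all genes). All 5 genes of ZNF554 to ZNF77 were below 0 too, with a median of -0.15, and 6 of the 7 genes of ZNF628 to ZNF580 were above 0, with one of 0.16. The clusters ZNF414 to ZNF846 (11 members) and ZNF653 to ZNF791 (23 members) had medians of -0.12 and -0.07. In each cluster the gene with the largest difference was ZNF730, ZNF181, ZNF790, ZNF234, ZNF175, ZNF264, ZNF833P, ZNF77, ZNF846 or ZNF865. Of these ZNF77, ZNF846 and ZNF865 had differences of -0.35, -0.35 and -0.34 with adjusted p values of 0.511, 0.394 and 0.661.

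**Figure D2:**
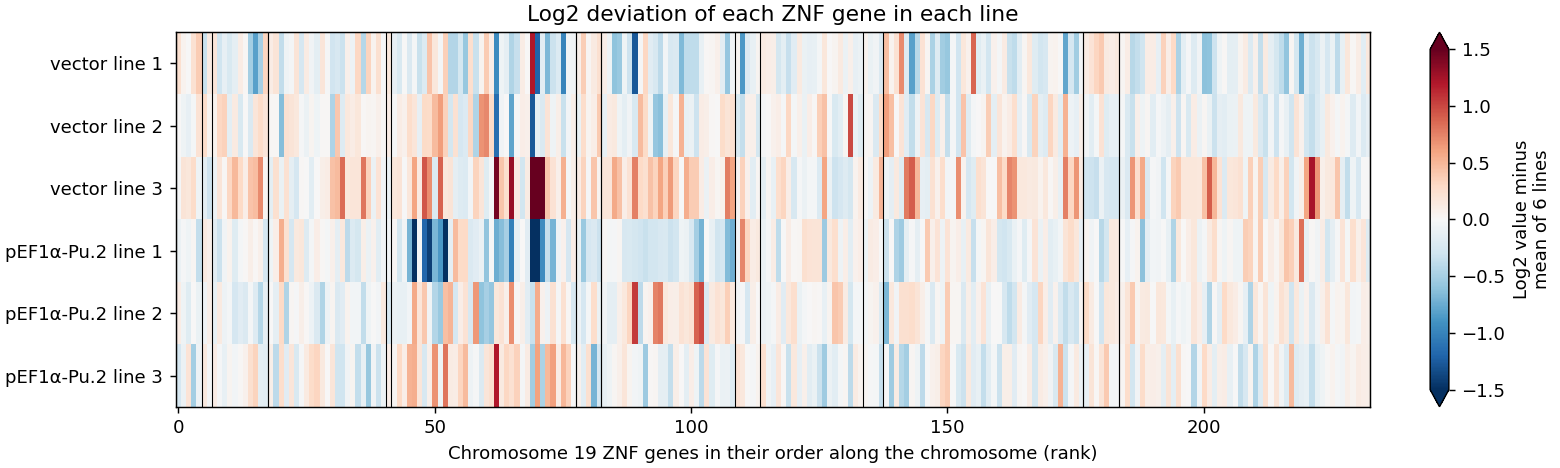
Log2 value of each of the 233 genes in each line minus its mean over the 6 lines (color), with genes in their order along chromosome 19 (horizontal axis, rank from 0) and lines on the vertical axis. Black lines bound the 10 clusters with 5 or more members, and the strongest colors, red in vector line 3 and blue in pEF1α-Pu.2 line 1, lie in the cluster from ZNF101 to ZNF507.

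In the ZNF91 cluster, single lines stood far from the others of their group. ZNF724 had log2 values of 6.11, 7.18 and 9.53 in vector lines 1, 2 and 3 and of 5.28, 7.87 and 7.91 in the pEF1α-Pu.2 lines. It was the most variable member, with vector line 3 highest and pEF1α-Pu.2 line 1 lowest, and its difference between the groups was -0.59 (standard error 0.93, adjusted p = 0.914). The difference was 0.37 without vector line 3 and 0.28 without pEF1α-Pu.2 line 1. ZNF730 had 7.18, 4.71 and 8.71 in the vector lines against 4.16, 5.65 and 5.46 in the others. The vector lines alone spanned the range of all 6 apart from pEF1α-Pu.2 line 1, and the difference of -1.78 (standard error 0.88, adjusted p = 0.603), the largest of all members, was within that spread. ZNF43 was low in vector lines 1 and 2, at 3.51 and 3.32, and in pEF1α-Pu.2 line 1, at 3.72. It was high in vector line 3, at 5.89, and in pEF1α-Pu.2 lines 2 and 3, at 4.62 and 5.65. Both groups thus held low and high lines, and the difference was 0.42 (adjusted p = 0.920). ZNF676 also had low and high lines in both groups, with 3.73, 3.40 and 5.49 in the vector lines against 3.17, 4.88 and 4.42 in the pEF1α-Pu.2 lines. ZNF626 had 9.68, 9.67 and 9.50 in the vector lines against 7.20, 9.78 and 10.12 in the pEF1α-Pu.2 lines. Here pEF1α-Pu.2 line 1 alone stood apart, by more than 2 log2 units. A second probe set of the gene, far dimmer (mean 5.77 against 9.33), had a group difference of -0.71 beside the -0.58 of this one. That group difference does not show which line it came from.

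ZNF91, which represses SVA retrotransposons, and ZNF93, which represses L1 elements, belong to this cluster. ZNF91 had 6.01, 5.96 and 7.91 in vector lines 1, 2 and 3 and 5.23, 6.24 and 5.70 in the pEF1α-Pu.2 lines. Only vector line 3 was high, and the difference of -0.90 (standard error 0.50, adjusted p = 0.654) was -0.26 without it. ZNF93 had 7.03, 7.24 and 7.66 in the vector lines against 5.20, 7.63 and 7.60 in the pEF1α-Pu.2 lines. Only pEF1α-Pu.2 line 1 was low, and the difference of -0.50 (standard error 0.58, adjusted p = 0.874) was 0.31 without that line. Neither gene separated the groups.

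The deviations ran along the chromosome in places. pEF1α-Pu.2 line 1 was the lowest of the 6 lines in 18 of the 36 members of the ZNF91 cluster, where it was lowest in 14.4% of all genes. It was the lowest in 5 consecutive members from ZNF90 to ZNF626 (ZNF90, ZNF486, ZNF826P, ZNF737 and ZNF626), and again in 4 from ZNF99 to ZNF91. In these last 4, ZNF99, ZNF730, ZNF724 and ZNF91, vector line 3 was also the highest, though the lines differed little for the dim ZNF99 (SD 0.12). ZNF714, ZNF431, ZNF708 and ZNF492 of the same cluster had SDs of 0.09 to 0.17, so that the spread did not extend to every member. In the cluster from ZNF565 to ZNF573 pEF1α-Pu.2 line 1 was the lowest in 10 of 26 members. Longer runs lay outside the ZNF91 cluster and in other lines. Vector line 3 was the highest in 7 consecutive members from ZNF699 to ZNF562. The same line was highest in 6 from ZNF433 to ZNF563 and in 6 from ZNF611 to ZNF816. Vector line 1 was the lowest in 6 from ZNF616 to ZNF880. Neighbours share sequence and can share probe signal, so that they are not independent of each other.

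**Figure D3:**
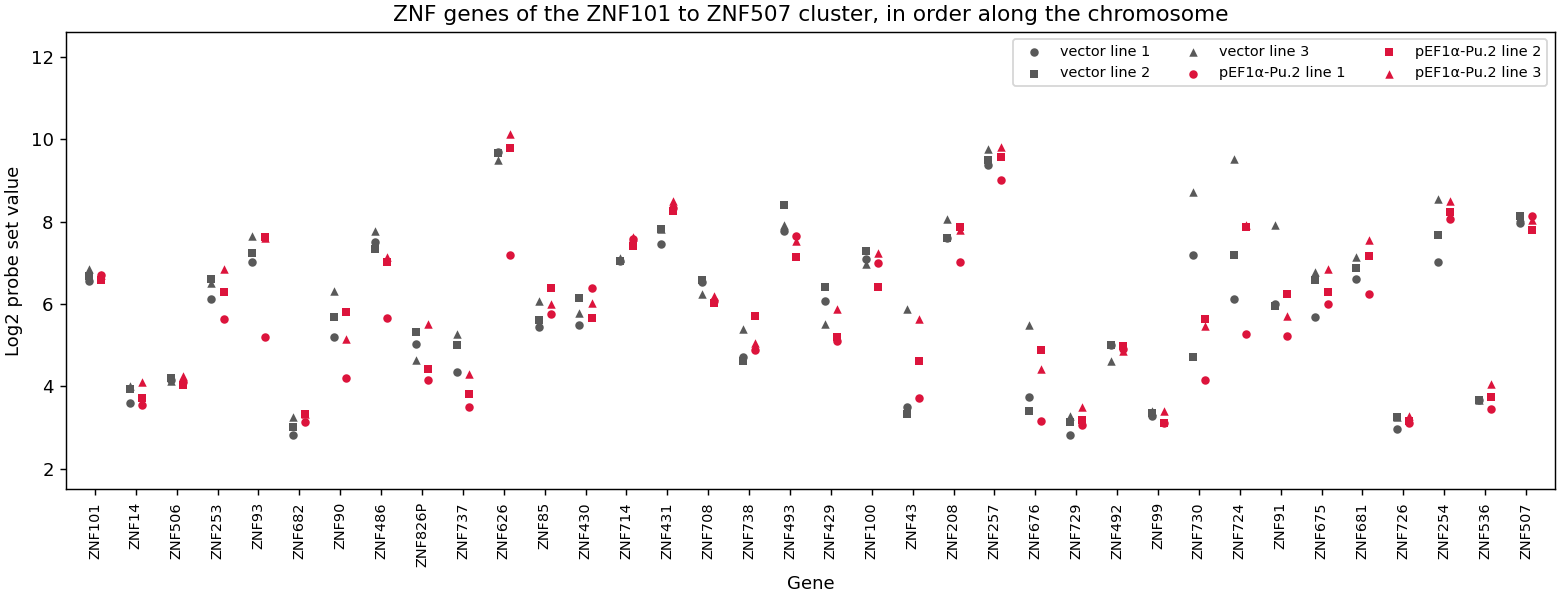
Vertical axis, log2 value of the probe set, for the 36 members of the cluster from ZNF101 to ZNF507 in their order along the chromosome, with 1 symbol per line, gray for the vector and red for the pEF1α-Pu.2 lines. The red circle of pEF1α-Pu.2 line 1 lies far below the rest for ZNF93 (5.20) and ZNF626 (7.20), and the gray triangle of vector line 3 above the rest for ZNF724 (9.53) and ZNF91 (7.91).

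Vector line 3 had higher values than the other vector lines over most chromosome 19 ZNF genes. It lay above the mean of vector lines 1 and 2 in 154 of the 233 (66.1%), where it did so in 42.3% of all genes, in 53.0% of the ZNF genes on other chromosomes and in 23.0% of the other genes on chromosome 19. The median gap was 0.15 in the members, 0.02 in the ZNF genes elsewhere, -0.14 in the other genes of the chromosome and -0.05 over all genes. With 1 array these gaps have no test. Vector line 3 was the highest of all 6 lines in 90 members (38.6%, 17.5% of all genes), and vector line 1 was the lowest in 66 (28.3%, 15.6% of all genes). By cluster, vector line 3 was above the mean of vector lines 1 and 2 in 23 of 26 genes from ZNF565 to ZNF573, with a median gap of 0.44, and in 0 of 7 from ZNF628 to ZNF580, with one of -0.32. The gaps were largest in ZNF724 (2.88), ZNF730 (2.77), ZNF43 (2.47) and ZNF91 (1.93). The gap over the members was 0.17 to 0.22 under the other normalizations, where that over all genes was -0.04 to 0.02.

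The other members of known role did not pass the test either. ZNF274, which brings SETDB1 to the 3′ ends of ZNF genes, had 6.58, 6.75 and 6.85 in the vector lines against 6.55, 6.66 and 6.74 in the pEF1α-Pu.2 lines. These overlap almost fully, with a difference of -0.07 (standard error 0.12, adjusted p = 0.920). ZNF175 had one of -0.66 (standard error 0.22, adjusted p = 0.368), with 9.25, 9.41 and 8.73 against 8.47, 8.12 and 8.80, so that vector line 3 and pEF1α-Pu.2 line 3 crossed. ZNF473, which takes part in the processing of histone mRNA, had 7.01, 7.49 and 7.73 against 7.21, 7.01 and 6.87, a difference of -0.38 (adjusted p = 0.624). The imprinted gene ZNF331 had a difference of -0.12 (adjusted p = 0.843), ZNF224, a partner of WT1, one of 0.08 (adjusted p = 0.910), and ZNF541, a germ cell gene, one of 0.10 (adjusted p = 0.866). ZNF382 and ZNF536, both at most 4.05 in every line, had differences of 0.07 and 0.08 (adjusted p = 0.938 each). On other chromosomes ZNF521, a factor of blood progenitors, was the 1 ZNF gene past the test, with a fall from 6.20 ± 0.16 to 4.77 ± 0.16 (SD, n = 3 lines each; adjusted p = 0.0068 from limma).

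Among corepressors and heterochromatin factors that act with KRAB zinc finger proteins, 30 of 32 had a probe set of their own, and none passed the test over all genes. At an unadjusted p under 0.05, DNMT3A was higher (3.33% of the 30, 3.83% of all genes) and DNMT3B, SETDB1, RBBP7 and MPHOSPH8 were lower (13.3%, 5.7% of all genes) in the pEF1α-Pu.2 lines. The median difference of the list was -0.07, with 11 of 30 above 0, beside 0.02 and 54.1% over all genes. TRIM28 had 7.37, 7.29 and 6.83 in vector lines 1, 2 and 3 and 7.52, 7.32 and 6.92 in the pEF1α-Pu.2 lines. The groups overlapped, with the lowest value in vector line 3, and the difference was 0.09 (standard error 0.20, adjusted p = 0.942), turning to -0.08 without vector line 3 and to -0.04 without pEF1α-Pu.2 line 1. SETDB1 had 7.11, 7.35 and 7.27 against 7.07, 6.74 and 6.39, without overlap but close, a difference of -0.51 (standard error 0.18, adjusted p = 0.399). DNMT3B, a DNA methyltransferase, had 8.01, 7.54 and 7.26 against 6.79, 7.14 and 6.69, a difference of -0.73 (standard error 0.21, adjusted p = 0.264), and DNMT3A one of 0.46 (standard error 0.13, adjusted p = 0.254). RBBP7, a histone-binding subunit of the NuRD complex, and MPHOSPH8, of the HUSH silencing complex, had differences of -0.27 and -0.32 (adjusted p = 0.510 and 0.524). CBX5, a heterochromatin protein, had 10.28, 10.31 and 10.40 against 10.29, 10.28 and 10.15, a difference of -0.09 (adjusted p = 0.885). None of the 30 had an SD between lines over 0.5, which 3.04% of all genes had.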

How the data were processed

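Total RNA of 3 pEF1α and 3 pEF1α-Pu.2 K562 lines was hybridized by the authors to 1 Affymetrix Human Gene ST array (version 1.0) per line and processed in Expression Console, and log2 values per probe set were deposited. How probes were summarized is not stated in what was read here. Groups were taken from the sample titles. Of 33297 probe sets, 19460 had 1 symbol in the platform annotation, 1754 several and 12083 none here, and gene IDs of 19429 matched the GRCh38.p14 table. The brightest probe set was kept for each gene, without a filter on dim ones, which leaves levels of different genes not comparable.

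All 18417 genes were fitted with limma 3.58.1 in R 4.3.3 (lmFit, eBayes, Benjamini-Hochberg, threshold 0.05, two-sided). The smallest exact permutation p with 3 lines per group is 0.1. In simulated data with 50 genes changed at each size, the fit recovered 7 at 1.5-fold, 43 at 2-fold and 50 at 4-fold. It also called 7 unchanged genes. The changed genes were drawn from all 18417, so these counts do not give the recovery among the members, whose spread was larger. The number of arrays limits the precision. Promoters were aligned with Biopython 1.88 (identities over 300 bases). Alternatives were a replicate block, each line left out, a filter at the median of all probe sets, quantile, median and cyclic loess scaling, eBayes with trend and robust fit, averaged probe sets per gene and other cluster limits. Members, lists and tests were chosen with earlier results of these data known, and the measures of spread, the vector line 3 gap and 2 promoter motifs after the values or sequences were seen. Named genes were the non-overlapping members with the 10 largest differences in each direction (9 existed above 0), the largest of each cluster, the 4 largest vector line 3 gaps and members of known role. Others named (ZNF626, ZNF676 and those completing a run or a count) were picked with their values known. Protein sequences were not used here.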

Additional observations from a re-analysis of the deposited data

How the results depend on the processing

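No member passed the test under the replicate block (0 genes), the filter, the 3 scalings, the trend and robust fit or the mean of probe sets, and 0 to 2 did with 1 line left out, the 2 without vector line 3. The ZNF genes on other chromosomes past the test were 1 to 2 with 1 line left out, the 2 being ZNF521 and ZNF711 without vector line 3, and 1 under all other settings, and the TRIM28 list had 0 throughout. The median difference over members was -0.10 to 0.04 with 1 line left out and -0.06 to -0.01 otherwise. Of 42 named genes over 527 gene and setting pairs, 9 turned in sign and 2 gained significance, all with 1 line left out. Over those fits ZNF43 ranged from -0.070 to 1.25, ZNF724 from -1.34 to 0.37, ZNF93 from -0.91 to 0.31, ZNF382 from -0.0042 to 0.21, ZNF536 from -0.077 to 0.22 and TRIM28 from -0.076 to 0.25. Deviations of same-numbered lines correlated at -0.15, -0.15 and -0.04 across genes, so the numbers were not taken to pair lines, and the block moved the calls over all genes from 68 to 64. Without vector line 3 there were 432 calls over all genes, and 20 to 42 without any other line. The causes were not tested. With a cluster limit of 5 genes the ZNF91 cluster had 34 members, and with 20 genes the last clusters joined into one of 56. Dim probe sets limit what can be seen.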

Other observations

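Probe sets annotated with several symbols that include a chromosome 19 ZNF gene numbered 22, and they read transcripts that the analysis by gene left out. None passed the test over all probe sets (limma, Benjamini-Hochberg), and 3 had an unadjusted p under 0.05 (13.6%, 8.54% of all 33297 probe sets). Of these 3, 2 are annotated to the ribosomal protein gene RPL39 and a pseudogene of it beside ZNF525, so that their signal cannot be assigned to a ZNF gene. Over all 22 the log2 differences ran from -0.65 to 0.25. The lowest was that of the probe set shared by ZNF559 and the readthrough ZNF559-ZNF177, with 6.13, 7.16 and 6.78 in the vector lines against 6.18, 6.24 and 5.70 in the pEF1α-Pu.2 lines (adjusted p = 0.583). A probe set shared by 8 genes of the ZNF91 cluster, ZNF730 and ZNF43 among them, was bright in every line, with 11.61, 11.68 and 11.64 in the vector lines against 11.67, 11.84 and 12.16 in the others. Its vector lines lay close together, whereas those of ZNF730 and ZNF43 lay far apart.

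Of the 5 members with more than 1 probe set, ZNF257 and ZNF208 disagreed most between theirs. The brighter probe set of ZNF257 had a difference of -0.08 and the dimmer one of -1.06, and those of ZNF208 had -0.19, -0.19 and -0.67. In ZNF493, ZNF616 and ZNF626 both probe sets had a difference below 0.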
